A study of Mus musculus with 30 samples.

Results

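Basal gene expression was compared between the livers of C151S and Nrf2-knockout mice, using the 10 vehicle libraries of these genotypes, 5 of each, among the 30 libraries of the series. The members were the libraries whose labels give the genotype C151S or Nrf2-knockout together with vehicle, and no wild-type library entered any value below. C151S mice are homozygous for a Keap1 allele, made by CRISPR-Cas9 editing, in which the cysteine that gives the allele its name is replaced by serine, and Nrf2-knockout mice are homozygous for a disrupted Nrf2 (Nfe2l2) gene. All animals were male, 7 to 10 weeks old, and on an albino C57BL/6J background, and each was given 1 oral dose of vehicle (DMSO and Cremophor-EL in PBS) 24 hours before its liver was taken. The CDDO-Me mice named below were of the same 2 genotypes and were given 30 µmol/kg of that triterpenoid in the same vehicle. Since both genotypes carry an altered allele, a difference due to the absence of NRF2 and one due to the serine in KEAP1 cannot be told apart in these 10 libraries. Each line was bred from homozygous animals, so a difference between the 2 colonies cannot be told apart from either.

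NRF2 is a transcription factor that pairs with small MAF proteins and binds antioxidant response elements near genes of detoxification and redox defence. KEAP1 holds it in the cytoplasm and presents it to the CUL3 ubiquitin ligase for degradation, and that cysteine is among the residues through which electrophiles release this hold. In the liver, genes known as NRF2 targets encode glutathione transferases, quinone and carbonyl reductases, glucuronidation enzymes, efflux transporters and the enzymes that make glutathione, and many are also transcribed in unstressed animals.

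Between 27793160 and 42073169 counts fell on genes in each library, with a median of 34466100. The hepatocyte genes Alb, Apoa1, Ttr and the others of their list were present in every library and summed to 125415 to 146793 CPM (counts relative to the library size, with edgeR's TMM factors) in C151S and 125729 to 137679 CPM in Nrf2-knockout livers. The clock gene Arntl parted the livers into a high and a low set with a gap between them, and 3 of the C151S and 2 of the Nrf2-knockout livers were in the high set. C151S mouse 4 and Nrf2-knockout mouse 5 stood farthest from the others on the first 2 principal components. In bulk tissue, fewer cells of a type and less RNA per cell cannot be told apart.

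Of 14323 genes tested, 50 differed between the genotypes (0.349%) with edgeR's quasi-likelihood test at a false discovery rate (FDR) under 0.05 and a log2 fold change of at least 0.5 in size. Of these, 44 were higher in C151S livers (0.307%) and 6 were lower (0.0419%), and 28 of the higher and 2 of the lower genes differed by 2-fold or more. The median log2 fold change over all genes tested was -0.013, against 1.29 over the called genes that were higher and -0.82 over those that were lower. The C151S and Nrf2-knockout values of each of the 50 genes did not overlap, as was true of 412 genes in all (2.88% of those tested). At an unadjusted p under 0.05 (edgeR) there were 1625 genes, and the 2 directions were closer in number, with 854 higher and 771 lower. Counts of genes at an unadjusted p under 0.05 in the lists below are to be read beside that total. Without C151S mouse 4 there were 51 calls, without Nrf2-knockout mouse 5 there were 41, and without both there were 49, of which 37 were among the 50. The count fell most without Nrf2-knockout mouse 2, to 29, and it was 31 without C151S mouse 1, C151S mouse 2 or Nrf2-knockout mouse 3.

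**Figure D1:**
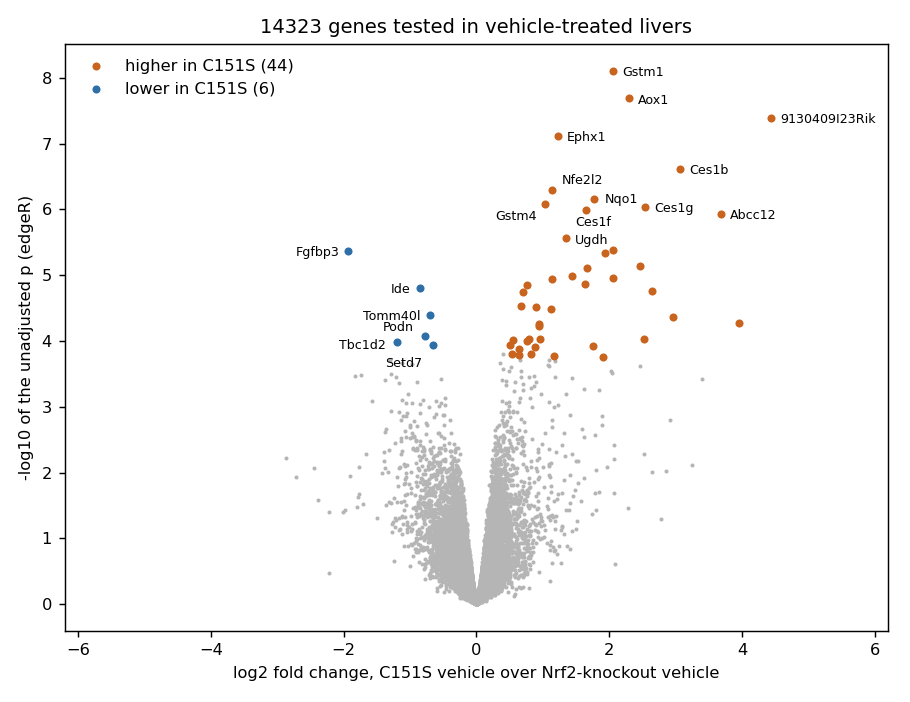
Each point is 1 of the 14323 genes tested, with the log2 fold change of C151S over Nrf2-knockout vehicle livers on the horizontal axis and the unadjusted p on a -log10 scale on the vertical axis. The 44 genes called higher in C151S (orange) lie farther out and higher up than the 6 called lower (blue), and grey points are genes that were not called.

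The targeted genes were examined first. The NRF2 gene Nfe2l2 (ENSMUSG00000015839.6) is on chromosome 2 from 75675513 to 75704641 (GRCm38). Its expression was 82.7, 86.8, 88.3, 75.7, and 67.3 CPM in C151S mice 1 to 5 and 31.6, 37.99, 41.3, 40.1, and 30.3 CPM in Nrf2-knockout mice 1 to 5. The lowest C151S liver was above the highest Nrf2-knockout liver, and the means of 80.2 ± 8.68 and 36.2 ± 5.004 CPM (SD, n = 5) gave a log2 fold change of 1.14 ± 0.12 (SE) with an FDR of 0.00119 (edgeR). The Nrf2-knockout libraries still held 875 to 1832 counts of Nfe2l2, and counts per gene do not show which exons they came from. Keap1 (ENSMUSG00000003308.15, chromosome 9 from 21229730 to 21239361) was expressed at 46.3 ± 5.88 CPM in C151S and at 49.4 ± 5.91 CPM in Nrf2-knockout livers (SD, n = 5), a log2 fold change of -0.09 ± 0.11 (SE) with an FDR of 0.796, and the serine codon cannot be seen in counts. Of the 13 genes listed as NRF2 and its partners, which include the competing repressor Bach1, the ligase scaffold Cul3 and the small MAF gene Mafg, Nfe2l2 alone was called, and the median of the list was 0.12. Of the other 91 genes tested within 10 Mb of Nfe2l2, 0 were called by edgeR, with 11 at an unadjusted p under 0.05, and DESeq2 called the predicted gene Gm13657. Within 20 Mb (169 tested) the numbers were 0 by edgeR, 20 at an unadjusted p under 0.05 and 2 by DESeq2 (Gm13657 and Gm10804). Over all 14323 genes tested, edgeR called 50 and gave 1625 at an unadjusted p under 0.05, and DESeq2 called 193. Within 10 Mb of Keap1, 1 of 104 genes was called, Zfp809, which lies 0.986 Mb away.

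To show the sequence that NRF2 is known to bind, the start regions of called genes were searched, on both strands, for the core of the antioxidant response element, TGACNNNGC, and for the form TGACTCAGC, which is contained in the core. Start regions from RefSeq (GRCm38.p6) run from 250 bases before to 50 bases after a gene's start and were found for 34 of the 44 genes higher in C151S. The core was in 7 of these 34 genes (20.59%) and in 1794 of 10703 tested genes (16.76%), and it occurred in 12.39% of all windows in the table. TGACTCAGC was in 3 of the 34 genes (8.824%), Pir, Hfe and Htatip2, against 54 of the tested genes (0.5045%) and 0.4536% of all windows. Neither was found in the 5 lower genes with a start region. A match is a description of the letters and not a measured site. The windows of the 3 genes with TGACTCAGC, of 9130409I23Rik, which holds 3 cores and had the largest fold change, and of Ugdh, which holds 2, are shown 5′ to 3′ on the strand of the gene, with the matches on either strand in capitals.
Pir, chrX:164269181-164269480, plus strand: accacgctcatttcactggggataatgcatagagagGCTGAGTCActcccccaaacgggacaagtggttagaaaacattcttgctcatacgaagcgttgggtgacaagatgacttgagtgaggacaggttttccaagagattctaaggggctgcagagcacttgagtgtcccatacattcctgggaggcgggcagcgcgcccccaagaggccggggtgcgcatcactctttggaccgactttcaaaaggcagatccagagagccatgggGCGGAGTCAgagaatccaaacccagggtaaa
Hfe, chr13:23710805-23711104, minus strand: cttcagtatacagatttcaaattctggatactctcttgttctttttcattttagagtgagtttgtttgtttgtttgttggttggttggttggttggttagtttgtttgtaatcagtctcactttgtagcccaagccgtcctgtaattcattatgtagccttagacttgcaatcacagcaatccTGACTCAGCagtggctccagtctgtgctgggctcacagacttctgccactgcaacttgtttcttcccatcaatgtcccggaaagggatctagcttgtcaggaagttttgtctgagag
Htatip2, chr7:49759262-49759561, plus strand: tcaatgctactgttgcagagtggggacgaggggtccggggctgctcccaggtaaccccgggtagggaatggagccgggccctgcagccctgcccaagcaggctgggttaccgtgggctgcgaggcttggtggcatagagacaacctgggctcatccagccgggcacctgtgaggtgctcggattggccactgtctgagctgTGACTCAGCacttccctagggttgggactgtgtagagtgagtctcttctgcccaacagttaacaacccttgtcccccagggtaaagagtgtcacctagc
9130409I23Rik, chr1:181050987-181051286, plus strand: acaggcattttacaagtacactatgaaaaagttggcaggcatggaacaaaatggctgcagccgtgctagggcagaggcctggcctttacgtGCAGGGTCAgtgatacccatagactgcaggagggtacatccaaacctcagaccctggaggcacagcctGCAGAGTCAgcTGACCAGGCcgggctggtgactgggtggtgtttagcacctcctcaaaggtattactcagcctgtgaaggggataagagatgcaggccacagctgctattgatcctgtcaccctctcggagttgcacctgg
Ugdh, chr5:65435793-65436092, minus strand: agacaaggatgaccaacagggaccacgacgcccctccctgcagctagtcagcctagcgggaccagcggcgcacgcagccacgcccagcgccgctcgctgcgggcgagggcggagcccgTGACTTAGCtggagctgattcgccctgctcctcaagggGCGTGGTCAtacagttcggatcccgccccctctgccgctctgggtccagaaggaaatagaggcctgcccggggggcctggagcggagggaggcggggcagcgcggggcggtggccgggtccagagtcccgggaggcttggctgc

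Glutathione transferases, which join glutathione to electrophiles, held the largest family of called genes. Of the 22 listed members tested, 8 were called and all 8 were higher in C151S, 15 reached an unadjusted p under 0.05, and the list median log2 fold change was 0.59. A single mouse decided part of this count, which was 4 without C151S mouse 1, 2, 3 or 5 or Nrf2-knockout mouse 1, 5 without Nrf2-knockout mouse 2 or 5, and 6 without any other. With the replicate number as a block, 1 was called. DESeq2 called 11, all higher in C151S, with Gsta3, Gstp2 and Mgst3 beside the 8. Of the 7 tested genes of the mu class cluster on chromosome 3, 5 were called, Gstm6, Gstm3, Gstm2, Gstm1 and Gstm4, which lie next to each other from 107938847 to 108044894. The other 2, Gstm5 and Gstm7, lie beside them and had log2 fold changes of -0.20 ± 0.11 and -0.01 ± 0.12 (SE), with FDR values of 0.507 and 0.982. Gstm1 (ENSMUSG00000058135.12), the mu class gene with the lowest p of any gene tested, was at 1388, 1593, 1310.3, 1122, and 1503 CPM in the C151S mice and at 292, 257, 345, 394, and 368 CPM in the Nrf2-knockout mice. The groups stood far apart, with a 4.18-fold difference, a log2 fold change of 2.06 ± 0.14 (SE) and an FDR of 0.000111 (edgeR). Gstm3 was more variable, at 144, 140.3, 179.6, 82.5, and 158 CPM in C151S and at 27.3, 21.6, 74.2, 44.6, and 21.03 CPM in Nrf2-knockout mice. C151S mouse 4 was the lowest of its group, just above Nrf2-knockout mouse 3, and the log2 fold change of 1.90 ± 0.35 (SE) had the highest FDR of the called genes, 0.0489. Gstm2, Gstm4 and Gstm6 differed less, with log2 fold changes of 0.95, 1.04 and 0.55. The processed pseudogene Gstm2-ps1 on chromosome 5 had 2.05, and since reads that map to several places were dropped, values of this pseudogene and of near-identical paralogs are uncertain.

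The alpha class genes Gsta4, Gsta1 and Gsta2 are the 3 genes tested in a stretch of 173 kb on chromosome 9, and all were called. Gsta2 (ENSMUSG00000057933.10) was at 34.9, 26.5, 25.6, 9.63, and 36.1 CPM in C151S and at 3.28, 5.79, 4.66, 5.73, and 1.77 CPM in Nrf2-knockout livers, a log2 fold change of 2.64 ± 0.38 (SE, FDR 0.0102, edgeR). C151S mouse 4 was again the lowest of its group. Gsta1 was close to the floor of detection, taken as 3 counts in a library: it had 41, 34, 77, 10, and 75 counts in C151S mice 1 to 5 and 2, 2, 10, 2, and 0 counts in Nrf2-knockout mice 1 to 5. The lowest C151S and the highest Nrf2-knockout library had the same number of counts, though not the same CPM, and the fitted log2 fold change of 3.95 ± 0.64 (SE) depends on how counts near 0 are treated. Gsta4, whose enzyme acts on the lipid peroxidation product 4-hydroxynonenal, was at 59.3 ± 13.95 against 21.7 ± 4.90 CPM (SD, n = 5), a log2 fold change of 1.45. Among members that edgeR did not call and that were named after their values were seen, Gstp2 had a log2 fold change of 2.47 (FDR 0.0564) and Gsta3 of 0.87 (FDR 0.0686). DESeq2 called both.

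Enzymes that oxidize, reduce or hydrolyse foreign compounds gave 8 called genes, all higher in C151S. Nqo1 (ENSMUSG00000003849.8, chromosome 8 from 107388225 to 107403206), the quinone reductase used as a marker of NRF2 activity, was at 6.53, 7.64, 6.80, 6.74, and 6.81 CPM in C151S and at 1.33, 1.73, 2.81, 2.19, and 2.04 CPM in Nrf2-knockout mice. The C151S livers lay close together, the groups did not overlap, and the log2 fold change was 1.77 ± 0.18 (SE), with an FDR of 0.00143 (edgeR). Ephx1 (ENSMUSG00000038776.13), the microsomal epoxide hydrolase, was at 430.01, 495, 411, 369.6, and 399 CPM against 167, 198, 158, 190.1, and 188 CPM. No value of one group approached the other, and the log2 fold change was 1.22 ± 0.10 (SE, FDR 0.000273). Of the 19 listed genes of quinone, carbonyl and epoxide reduction, these 2 were called, 7 reached an unadjusted p under 0.05, and the list median was 0.23. Akr1c6, Ephx2 and Nqo2, which have high CPM values, were not called, with log2 fold changes of 0.21, 0.05 and 0.33.

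The aldehyde oxidases Aox1 and Aox3, molybdenum enzymes that oxidize aldehydes and nitrogen heterocycles, are the 2 genes tested in their stretch of chromosome 1. Aox1 (ENSMUSG00000063558.4) was at 96.02, 99.3, 120.1, 80.6, and 76.4 CPM in C151S and at 19.98, 16.8, 13.9, 21.2, and 24.7 CPM in Nrf2-knockout livers, 4.90-fold higher, with a log2 fold change of 2.29 ± 0.17 (SE) and an FDR of 0.000147 (edgeR). Aox3 was at 875, 693, 889, 488, and 595 CPM against 207, 233, 97.3, 121, and 188 CPM, a log2 fold change of 2.06 ± 0.26 (SE, FDR 0.00437). In both genes the groups were separate, and the C151S mice ranged more widely in Aox3. The other aldehyde, flavin and purine oxidases in the list were not called by edgeR (2 of 15 in all, median 0.16), including the urate oxidase gene Uox with a log2 fold change of 0.04 and the mitochondrial dehydrogenase gene Aldh2 with 0.29. DESeq2 also called Aldh1a7, higher in C151S.

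Carboxylesterases, serine hydrolases that cleave esters of drugs and lipids, had 4 called members of 13 tested, all higher in C151S, with a list median of 0.50. Ces1b (ENSMUSG00000078964.2) was at 108, 97.7, 81.9, 91.04, and 120.01 CPM in C151S and at 8.58, 13.6, 14.996, 17.1, and 4.92 CPM in Nrf2-knockout livers. Every C151S liver exceeded every Nrf2-knockout liver several times over, and the log2 fold change was 3.07 ± 0.29 (SE) with an FDR of 0.000698 (edgeR). Ces1g was at 124, 87.4, 102, 209, and 89.1 CPM against 25.2, 15.4, 21.9, 15.03, and 27.3 CPM, with C151S mouse 4 highest, and its log2 fold change was 2.55 ± 0.27 (SE, FDR 0.00145). Ces1f had 1.65 ± 0.18 (SE, FDR 0.00147) and Ces2a, on another part of chromosome 8, 0.50 ± 0.09 (SE, FDR 0.0394). DESeq2 called 7 of the list, all higher in C151S, with Ces1a, Ces1e and Ces2c added. The Ces1 genes called by edgeR stand among neighbours that it did not call. Within the 281 kb from Ces1b to Ces1g, 8 genes were tested and 3 were called, while Ces1c had a log2 fold change of 0.29 ± 0.09 (SE, FDR 0.294) and Ces1d 0.71 ± 0.26 (SE, FDR 0.363).

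**Figure D2:**
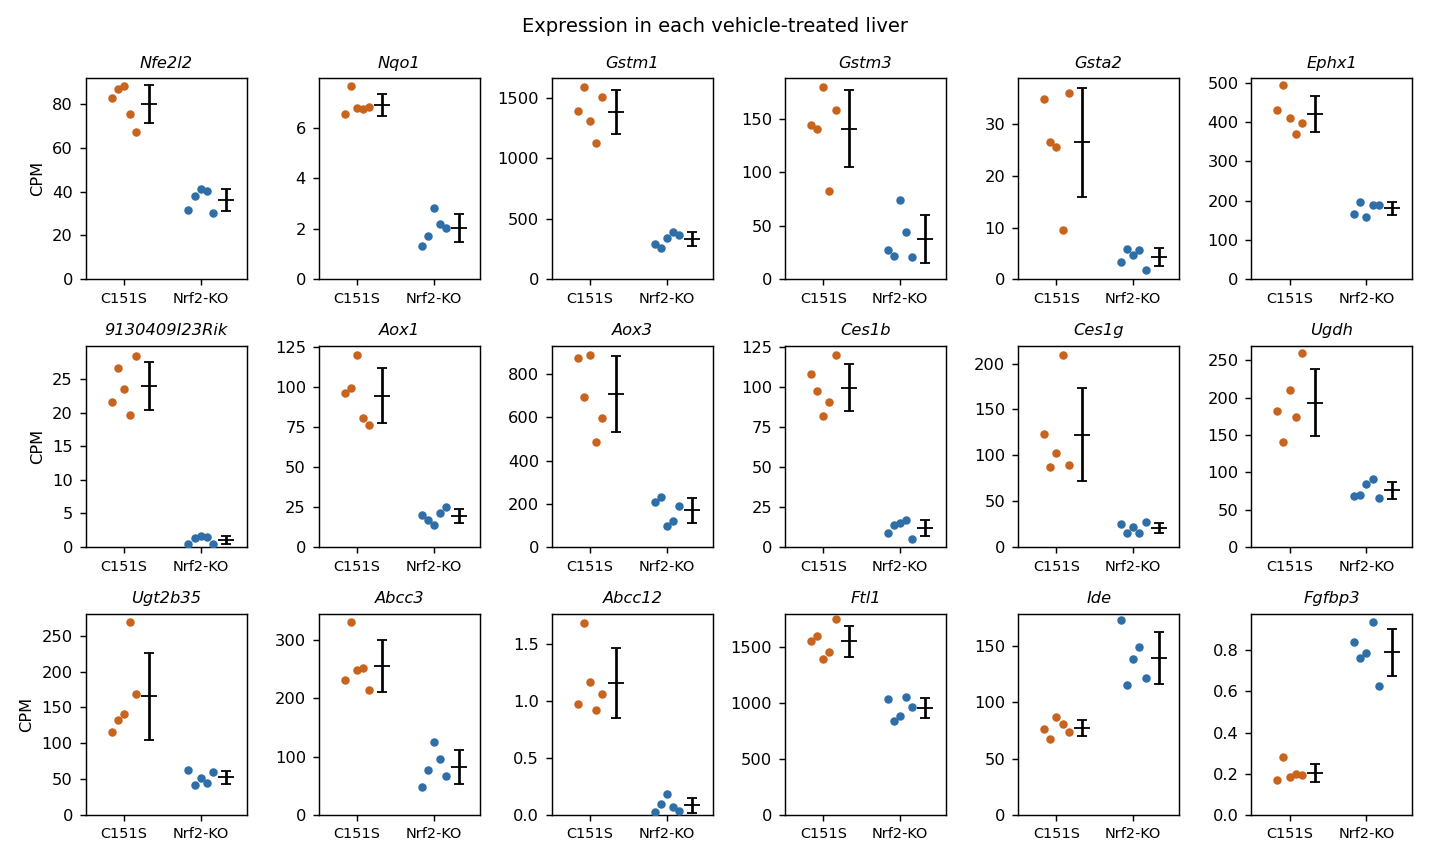
Each panel gives the CPM of 1 called gene in the 5 C151S (orange) and 5 Nrf2-knockout (blue) vehicle livers, mice 1 to 5 from left to right, with the mean and SD in black on an axis that starts at 0. In the first 16 panels every C151S liver is above every Nrf2-knockout liver, and in those of Ide and Fgfbp3 every C151S liver is below.

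Glucuronidation attaches glucuronic acid to drugs, bilirubin and steroids. Of 19 listed genes tested, 6 were called, all higher in C151S, and the median was 0.47. The count was 2 without Nrf2-knockout mouse 2 or 3, 3 without C151S mouse 1, 2 or 5, and 0 with the replicate number as a block. Ugdh (ENSMUSG00000029201.14, chromosome 5 from 65413221 to 65435949), which makes the UDP-glucuronic acid that these enzymes use, was at 182, 140.2, 211, 174, and 259 CPM in C151S and at 68.1, 70.3, 84.1, 90.8, and 65.6 CPM in Nrf2-knockout livers, with a log2 fold change of 1.35 ± 0.16 (SE) and an FDR of 0.00331 (edgeR). The transferase gene Ugt2b35 was at 115, 133, 141, 269, and 169 CPM against 62.1, 41.9, 51.99, 44.7, and 60.2 CPM, a log2 fold change of 1.66 ± 0.22 (SE, FDR 0.00663). C151S mouse 4, the lowest of its group for Gstm3 and Gsta2, was the highest for Ugt2b35, and it was also the highest for the neighbouring Ugt2b36, Ugt2b5 and Sult1b1. Ugt2b5, Ugt2b36, Ugt1a6b and Ugt1a9 had log2 fold changes of 1.12, 0.94, 0.79 and 0.64. Sult1b1, a sulfotransferase in the same stretch of chromosome 5, had 0.77 ± 0.13 (SE, FDR 0.0366), and Entpd5, a nucleoside diphosphatase of the endoplasmic reticulum, 0.89 ± 0.14 (SE, FDR 0.0159). The processed pseudogene Gm18635, next to Ugt2b35, had 2.52 ± 0.43 (SE, FDR 0.0362) at low means of 1.42 CPM in C151S and 0.249 in Nrf2-knockout livers. Other transferases were not called, although 15 of the 19 listed genes had a log2 fold change above 0. Between Ugt2b5 and Sult1b1, Ugt2a3 had 0.30 ± 0.12, Ugt2b37 -0.59 ± 0.28 and Ugt2b38 -1.05 ± 0.49 (SE). Ugt1a1, whose enzyme conjugates bilirubin, had 0.00 ± 0.17 (SE). The Ugt1a genes share their last exons, so that counts of Ugt1a6b and Ugt1a9 rest on reads of their own first exons.

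Of 14 ABC efflux transporters, Abcc3 was called, and the median of the list was 0.23. Abcc3 (ENSMUSG00000020865.16, chromosome 11 from 94343295 to 94392997), which exports glucuronides across the basolateral membrane into blood, was at 232, 331, 248, 252, and 215 CPM in C151S and at 47.4, 77.4, 125, 95.6, and 66.7 CPM in Nrf2-knockout mice. Its log2 fold change was 1.63 ± 0.23 (SE) with an FDR of 0.00906 (edgeR), while those of the canalicular transporters Abcb11 and Abcc2 were 0.22 ± 0.18 and 0.34 ± 0.15 (SE), and neither was called. Abcc12, outside that list, was close to the floor, with 29, 54, 44, 28, and 38 counts in C151S mice 1 to 5 and 1, 4, 8, 2, and 1 counts in Nrf2-knockout mice 1 to 5. The C151S livers were all higher, and the fitted log2 fold change was 3.69 ± 0.40 (SE, FDR 0.00151).

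Iron storage was represented by Ftl1 (ENSMUSG00000050708.16), the ferritin light chain, at 1555, 1596, 1396, 1457, and 1749 CPM in C151S and at 1036, 839, 885, 1052, and 965 CPM in Nrf2-knockout livers. The groups did not overlap, and the log2 fold change was 0.70 ± 0.10 (SE) with an FDR of 0.0104 (edgeR). The heavy chain gene Fth1 had 0.50 ± 0.13 (SE) and was not called by edgeR, with an FDR of 0.197, while DESeq2 called it higher in C151S. Hfe, a regulator of hepcidin that was outside the list, had 0.53 ± 0.10 (SE, FDR 0.0472), and Ftl1-ps1, a ferritin light chain copy on chromosome 13, had 0.82. Of the 13 listed genes of heme and iron, edgeR called 1, Ftl1, and DESeq2 called 2, Ftl1 and Fth1. Hmox1, the inducible heme oxygenase and a known NRF2 target, named after its values were seen, was at 20.02 ± 4.48 CPM in C151S and at 19.6 ± 8.03 CPM in Nrf2-knockout livers (SD, n = 5), a log2 fold change of 0.03 ± 0.27 (SE).

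The other 13 genes that were higher in C151S, Nfe2l2 among them, have varied roles. 9130409I23Rik (ENSMUSG00000038768.8), a protein coding gene next to Ephx1 on chromosome 1, was at 21.6, 26.6, 23.5, 19.7, and 28.5 CPM in C151S and at 0.433, 1.41, 1.64, 1.56, and 0.381 CPM in Nrf2-knockout mice. Its log2 fold change of 4.44 ± 0.35 (SE, FDR 0.000194) was the largest of the called genes. Pir, which encodes the iron-binding nuclear protein pirin, had 1.14 ± 0.16 (SE, FDR 0.00812), Creg1, a lysosomal and secreted glycoprotein gene, 0.75 ± 0.11 (SE, FDR 0.00906), and Htatip2, which encodes a short-chain dehydrogenase-like protein, 0.67 ± 0.10 (SE, FDR 0.0159). Gadd45g, a stress-responsive growth arrest gene, was at 48.4, 69.4, 98.8, 38.3, and 49.9 CPM in C151S and at 16.8, 11.5, 16.5, 15.1, and 19.6 CPM in Nrf2-knockout livers, a log2 fold change of 1.94 ± 0.24 (SE, FDR 0.00439). Lrit2, Adgrg2 (an adhesion G protein-coupled receptor), Cebpe (a transcription factor of granulocytes), Zfp809 (a zinc finger silencer of retroviral sequences) and Gm36028 had log2 fold changes between 0.64 and 1.75. The mitochondrial transfer RNA genes mt-Tp and mt-Te were also called, with log2 fold changes of 2.46 and 2.96. They are 67 and 69 bases long, the library method selects polyadenylated RNA, and mt-Te had 2, 3, 4, 0, and 4 counts in the Nrf2-knockout livers, 3 of these at or under the floor of 3 counts.

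Of the 6 genes that were lower in C151S, 2 share a stretch of 420 kb on chromosome 19. Fgfbp3 (ENSMUSG00000047632.11), a binding protein of fibroblast growth factors, was at 0.168, 0.281, 0.186, 0.197, and 0.195 CPM in C151S and at 0.839, 0.764, 0.788, 0.937, and 0.624 CPM in Nrf2-knockout mice, a log2 fold change of -1.93 ± 0.24 (SE, FDR 0.00437, edgeR). Its C151S values were close to the floor of 3 counts, which was 0.0676 to 0.104 CPM. Ide (ENSMUSG00000056999.15), the insulin-degrading enzyme, was at 76.7, 67.7, 87.3, 81.2, and 73.5 CPM against 173, 115, 139, 149, and 121 CPM, a log2 fold change of -0.85 ± 0.12 (SE, FDR 0.00971). For both, the highest C151S liver was below the lowest Nrf2-knockout liver, while the 3 tested genes between them, Btaf1, Cpeb3 and March5, had log2 fold changes of -0.18, 0.37 and 0.28 and were not called. Tbc1d2, a regulator of Rab GTPases, had -1.20 ± 0.21 (SE), Podn, a proteoglycan of the extracellular matrix, -0.78 ± 0.13 (SE), Tomm40l, a homolog of the mitochondrial import channel, -0.70 ± 0.11 (SE), and Setd7, a lysine methyltransferase, -0.65 ± 0.12 (SE), with FDR values of 0.0374, 0.0355, 0.0196 and 0.0394. None of the 6 belonged to a list examined here.

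Some called genes lay side by side. With called genes joined when at most 1 Mb apart, 24 of the nuclear called genes fell into 8 loci, and the called genes of each locus had 1 direction. The share of all tested genes that lie as close was not computed. As 44 of the 50 called genes were higher, 1 direction per locus would be common in any case. The edges of a locus were the outermost called genes. No uncalled gene was tested inside the stretches of the mu class genes, where Gstm7 and Gstm5 lie just outside, of the alpha class genes, of the Aox genes and of Ephx1 and 9130409I23Rik. The others also held uncalled genes, with 5 of 11 tested genes called between Ugt2b35 and Sult1b1, 3 of 8 in the Ces1 locus, 2 of 8 in the Ugt1a locus and 2 of 5 in that of Fgfbp3 and Ide. From Ugt2b35 to Ugt2b5 the called genes were consecutive. Whether genes of 1 locus vary independently was not tested.

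**Figure D3:**
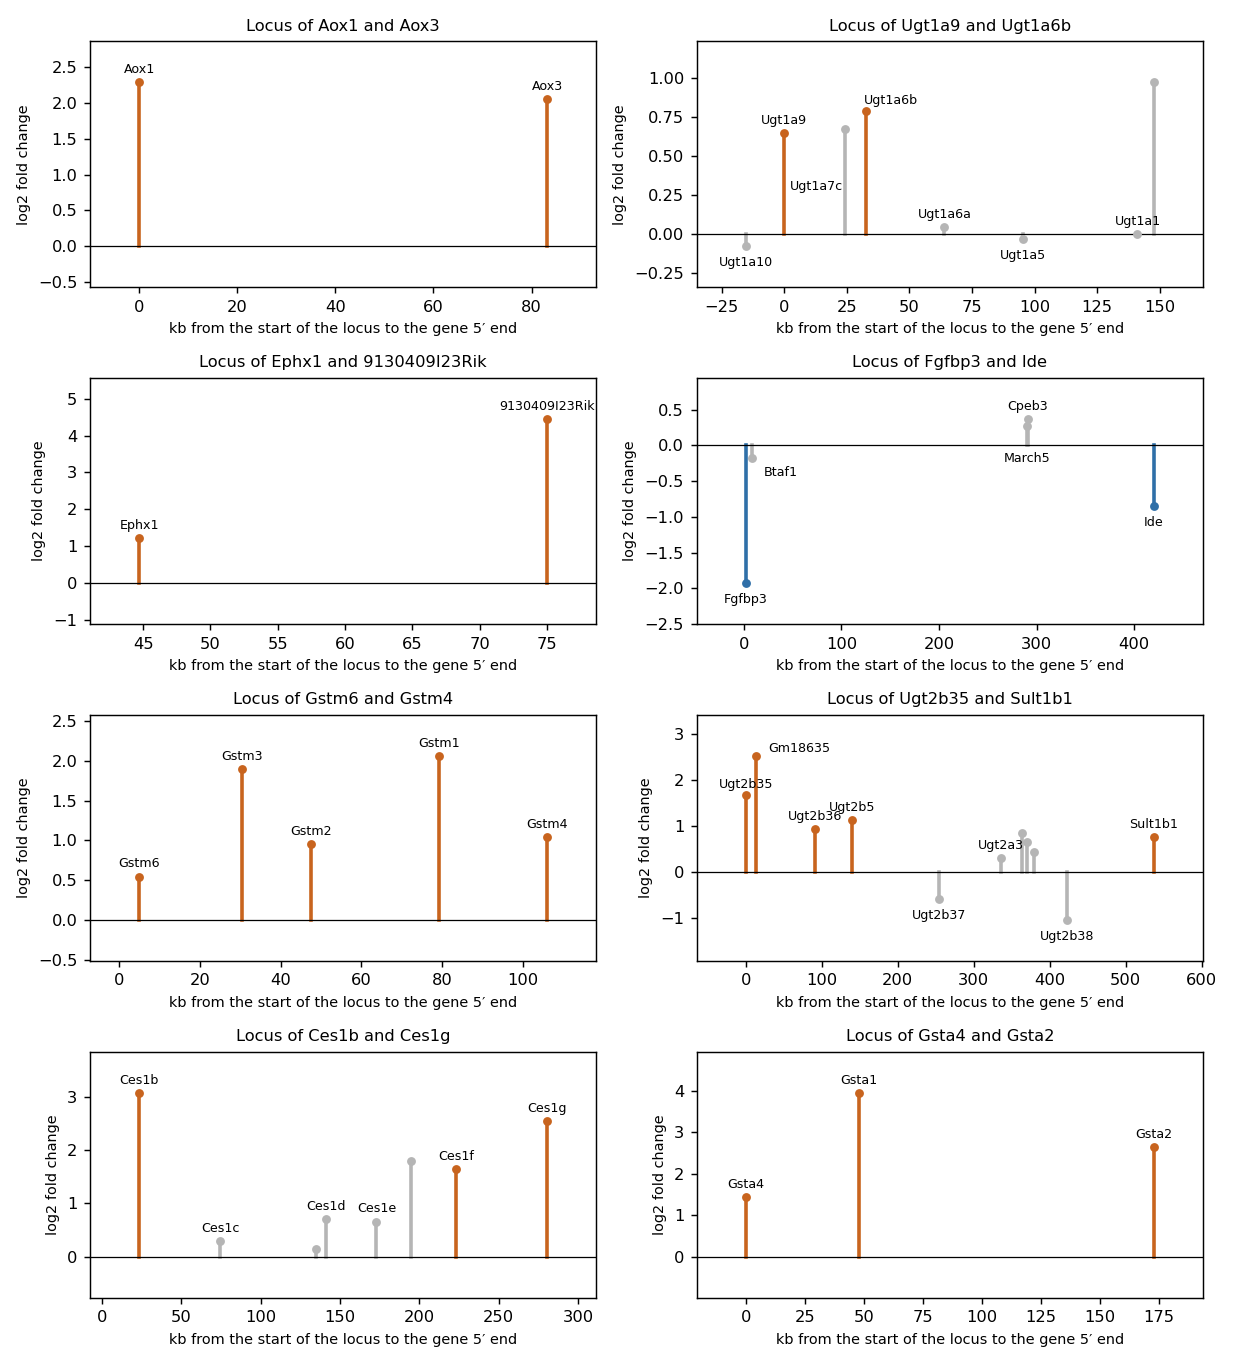
For each of the 8 nuclear loci, the log2 fold change of every tested gene in the stretch is drawn against the distance in kb from the start of the locus to the 5′ end of the gene, with called genes higher in C151S in orange, called genes lower in blue and uncalled genes in grey (predicted genes unlabelled). The 5 called Gstm genes are drawn, with Gstm5 and Gstm7 outside the stretch, and in the Ces1 stretch Ces1b, Ces1f and Ces1g stand above Ces1c, Ces1d and Ces1e.

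Several classes of genes known as NRF2 targets had no member called by edgeR. Among 23 genes of glutathione and thioredoxin metabolism, 0 were called by edgeR and 1 by DESeq2 (Txnrd1), although 9 had an unadjusted p under 0.05, 18 had a log2 fold change above 0 and 5 had groups that did not overlap, with a median of 0.14. Gclc, the catalytic subunit that limits glutathione synthesis, was at 279 ± 73.96 CPM in C151S and at 168 ± 73.8 CPM in Nrf2-knockout livers (SD, n = 5), a log2 fold change of 0.74 ± 0.28 (SE) with an FDR of 0.364 (edgeR). Named after their values were seen, its partner Gclm had 0.43 ± 0.10 (SE, FDR 0.136), the sulfiredoxin gene Srxn1 0.39 ± 0.08 (SE, FDR 0.0611) and the thioredoxin reductase gene Txnrd1 0.49 ± 0.11 (SE, FDR 0.114), and the groups of all 3 did not overlap. Among the 10 genes of NADPH supply 0 were called by either tool, edgeR or DESeq2, and 1 reached an unadjusted p under 0.05, with a median of 0.05. The malic enzyme gene Me1 had 0.92 ± 0.30 (SE, FDR 0.302), and Pgd and G6pdx of the pentose phosphate pathway had 0.03 ± 0.13 and 0.04 ± 0.27 (SE).

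Of the 25 cytochromes P450 of drug metabolism tested, 0 were called by edgeR and 2 by DESeq2 (Cyp2b10 and Cyp2c29). An unadjusted p under 0.05 (edgeR) was found for 8, and the list median was 0.16. Cyp3a11 had a log2 fold change of 0.34 ± 0.17 (SE, FDR 0.464), Cyp2c29 of 1.19 ± 0.34 (SE, FDR 0.245), and Cyp2a12 of -0.00 ± 0.10 (SE). Cyp2b10, a target of the receptor CAR named after its values were seen, was at 15.4, 134, 20.5, 13.8, and 28.9 CPM in C151S and at 9.53, 2.93, 9.30, 4.62, and 1.80 CPM in Nrf2-knockout mice. C151S mouse 2 was far above the rest of its group, the groups did not overlap, and the log2 fold change of 2.91 ± 0.71 (SE) had an FDR of 0.156.

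Outside detoxification, 0 genes were called by edgeR in the lists of cholesterol synthesis, lipogenesis, PPARα targets, bile acids, ATF4 and endoplasmic reticulum stress, mitosis, interferon response, acute phase proteins, metallothioneins and the clock. Each of these lists had between 0 and 6 genes at an unadjusted p under 0.05, and DESeq2 called 3, Cyp4a31 lower and Slco1a4 and Asns higher in C151S. Cyp4a31, a PPARα target, was also called by edgeR without C151S mouse 2. Of the 19 cholesterol synthesis genes, 1 had a log2 fold change above 0 and 6 had an unadjusted p under 0.05, with a median of -0.29, and Hmgcs1, which makes the precursor of mevalonate, had -0.29 ± 0.21 (SE, FDR 0.647). Of the 19 PPARα targets, 2 were above 0 and 3 had an unadjusted p under 0.05, with a median of -0.31, and Cyp4a14, a fatty acid hydroxylase, had -0.81 ± 0.23 (SE, FDR 0.245). The immediate early genes had the highest median of any list, 1.47, with 9 of 10 above 0 and 7 with an unadjusted p under 0.05, while 0 were called by edgeR and 1 by DESeq2 (Myc). Without C151S mouse 4, edgeR called 2, Egr1 and Ier2. Egr1, a transcription factor induced within minutes of a stimulus, was at 156, 426, 389, 6.41, and 207 CPM in C151S and at 57.9, 55.6, 21.4, 36.6, and 35.4 CPM in Nrf2-knockout livers. C151S mouse 4 was the lowest of the 10 and the other 4 C151S livers were above every Nrf2-knockout liver, and the log2 fold change of 2.52 ± 0.73 (SE) had an FDR of 0.254.

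Markers of other liver cells were measured in the same libraries, and 0 were called by edgeR. DESeq2 called Col1a1, Col3a1 and the cholangiocyte marker Spp1, all lower in C151S, and edgeR called both collagen genes without Nrf2-knockout mouse 1. Those of stellate cells and fibroblasts summed to 186 to 357 CPM in C151S and to 196 to 543 CPM in Nrf2-knockout livers, with a median log2 fold change of -0.48 and 3 of 8 at an unadjusted p under 0.05. Col1a1 had -1.21 ± 0.24 (SE, FDR 0.0686). The cholangiocyte markers summed to 18.6 to 27.6 and 32.2 to 63.7 CPM, with a median of -0.81, and 4 of the 5 tested had an unadjusted p under 0.05. Erythrocyte markers summed to 196 to 418 and 142 to 219 CPM, with a median of 0.62. The medians were -0.12 for Kupffer cell, -0.21 for endothelial, -0.24 for lymphocyte and 0.06 for hepatocyte markers, and 5 of the 6 pancreas markers did not pass the filter on low counts. The matrix gene Podn moved in the direction of the stellate markers, and their part in its difference was not tested.

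**Figure D4:**
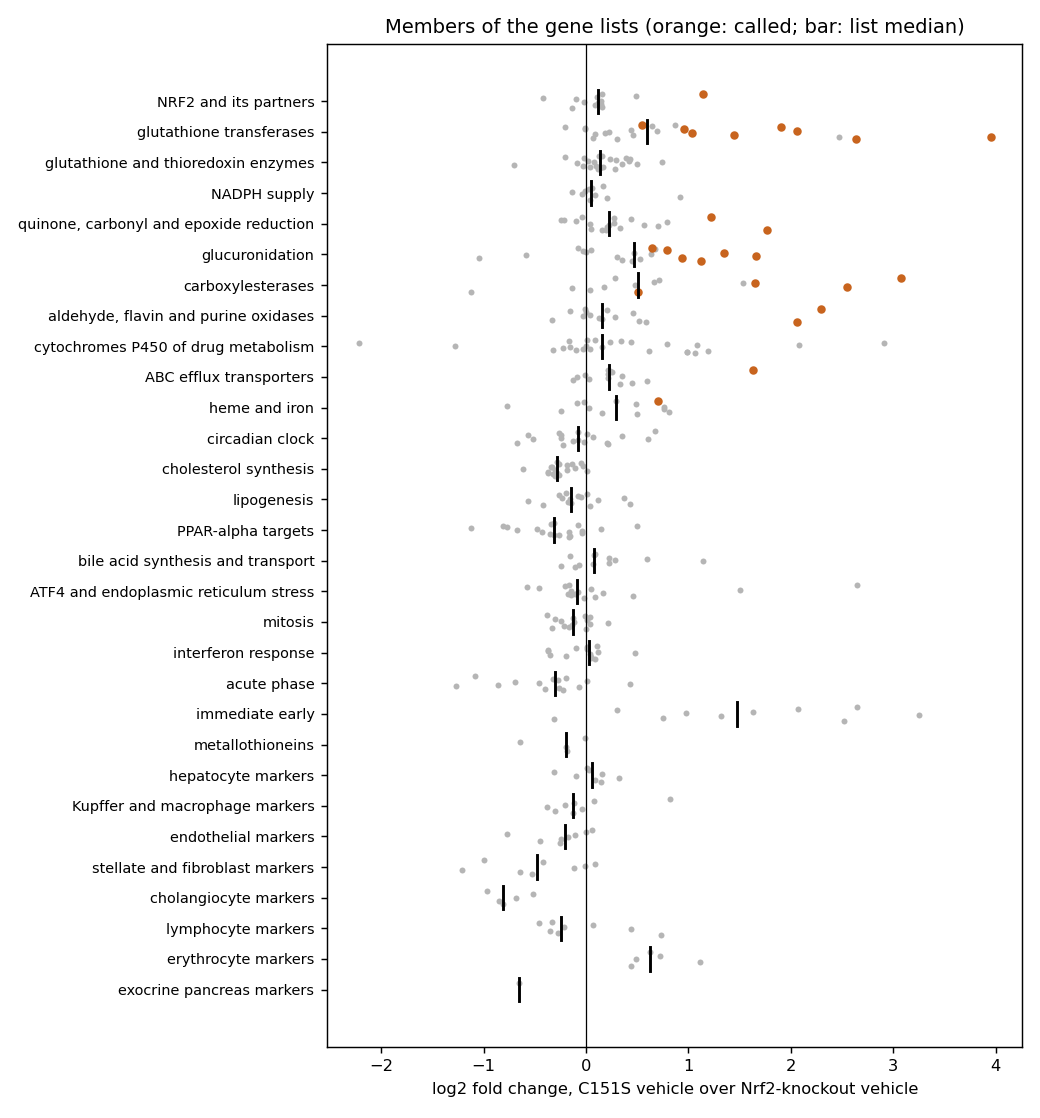
The log2 fold change of C151S over Nrf2-knockout vehicle livers is plotted for every tested member of the 30 lists, with called genes in orange, other genes in grey and the list median as a black bar. Called genes are in 8 lists, all to the right of 0, and the immediate early list has the highest median (1.47) without a called gene.

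The mice given CDDO-Me offered the same genotype contrast in 10 other animals. With the same test, 23 of 14186 genes were called there (0.162%), 18 higher in C151S (0.127%) and 5 lower (0.0352%), and 13 genes were called in both, which is 26% of the basal calls and 56.5% of those after CDDO-Me. Of the 50 basal genes, 48 passed the filter there and 46 of these had the same sign, with 39 at an unadjusted p under 0.05. The median log2 fold change after CDDO-Me was 0.89 over the genes higher at basal state and -0.72 over those lower, against -0.00125 over all genes tested there. Ces1b had 3.31 ± 0.18 (SE, FDR 9.13e-06), Aox1 1.83 ± 0.15 (SE, FDR 0.000348), Nqo1 1.46 ± 0.19 (SE, FDR 0.0108) and Ide -0.97 ± 0.10 (SE, FDR 0.00190). Gadd45g and Zfp809 had log2 fold changes of -0.07 ± 0.45 and -0.08 ± 0.15 (SE) after CDDO-Me, with a sign opposite to that of the vehicle mice, and mt-Te had 0.17 ± 0.41 (SE). The difference between the vehicle and CDDO-Me contrasts was 2.004 ± 0.55 for Gadd45g, 0.72 ± 0.19 for Zfp809 and 2.80 ± 0.65 for mt-Te (log2, SE), with unadjusted p-values of 0.00159, 0.00141 and 0.000343. Over all 15020 genes of that edgeR fit, 0 passed an FDR of 0.05 and 507 had an unadjusted p under 0.05, and the adjusted p of these 3 genes was 0.999.

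**Figure D5:**
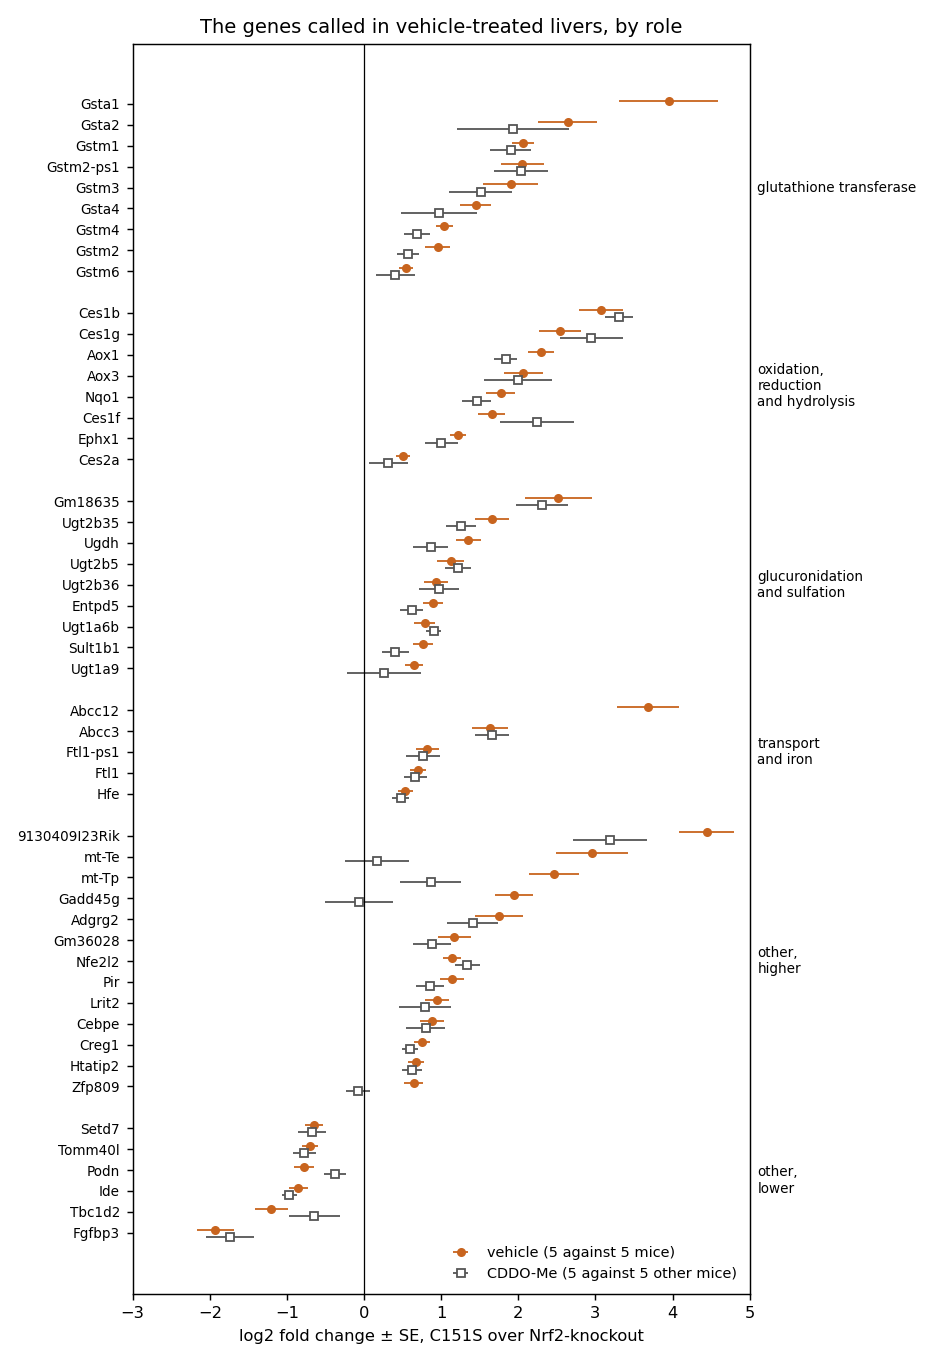
For each of the 50 called genes, grouped by role, the log2 fold change of C151S over Nrf2-knockout is shown with its SE in vehicle mice (orange circles) and, for the 48 genes tested there, in CDDO-Me mice (open squares). In 46 of the 48 genes the square is on the same side of 0 as the circle, the exceptions being Gadd45g and Zfp809, and mt-Te lies near 0 after CDDO-Me.

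The livers also differed by the clock gene Arntl, and the sets were unevenly spread over the genotypes. The high set held C151S mice 1, 2 and 3 and Nrf2-knockout mice 4 and 5. Within the high set (3 C151S and 2 Nrf2-knockout livers) and within the low set (2 and 3), each of the 50 called genes kept the sign it had over all 10 livers. Since the groups of these genes did not overlap, any subset of the livers had to give that sign, and only the sizes are informative. The log2 difference of Gstm1 was 1.90 in the high and 2.14 in the low set, that of Nfe2l2 was 1.30 and 0.96, and that of Ugt2b5 was 0.76 and 1.51. The differences were 2.32 and 1.69 for Gstm3, 2.43 and 1.69 for Aox3, and 3.37 and 3.11 for Ces1b. No covariate for the date of sample isolation entered the fit, since those dates are not in the labels.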

How the data were processed

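RNA was measured in livers by stranded sequencing of polyadenylated RNA, with 1 library per mouse. The authors aligned paired-end reads to mm10 with STAR 2.7.7 and deposited raw counts per gene for the strand of the library (GENCODE release 23), without normalization. Reads that map to several places were dropped, which can lower genes with near-identical copies. The 4 summary lines of STAR, 19.8% to 27.7% of the reads of a library, were left out. Symbols and positions were matched for 55154 of 55335 genes from GENCODE release 21 (GRCm38).

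Libraries were grouped by their labels, and the 10 vehicle libraries of both genotypes were fitted alone. In edgeR 4.0.16 under R 4.3.3, filterByExpr removed low genes, TMM factors scaled the libraries, and glmQLFTest on the legacy quasi-likelihood fit gave p-values, adjusted by Benjamini-Hochberg over 14323 genes. A gene was called at an FDR under 0.05 and a log2 fold change of at least 0.5 in size, and SE is the size of the log2 fold change over the square root of F. A count of 3 or less was taken as the floor, 0.0676 to 0.104 CPM, which covers counting error only. The fit was tested on simulated counts.

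The members and gene lists were chosen with earlier results of these data known, so that a pattern in a list is a description. The text names Nfe2l2, Keap1, all called genes and up to 8 members per list, called ones first and then those with the highest CPM. For most other genes it says that they were chosen after their values were seen. Genes named for a call by DESeq2 or with a mouse left out were also chosen in that way. So were Ugt1a1, G6pdx and uncalled genes named for their position beside called ones, such as Gstm5, Gstm7 and Ugt2b37. Replicate numbers were not used to pair the mice in the main fit. The alternatives were DESeq2 1.42.0, other normalizations, fits, filters and thresholds, a fit of 20 libraries, a replicate block, the Arntl set or 1 surrogate variable (sva 3.50.0) as a covariate, and each mouse left out. Leaving out the 2 livers that stood apart was added after the data were seen.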

Additional observations from a re-analysis of the deposited data

Results flagged for a closer look

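In groups of 5 mice, 5 of 102 groups of a called or targeted gene had 1 library far from the others by Dixon's ratio, and chance flags about 1 in 20 groups. For Gstm2, C151S mouse 3 was at 73.3 CPM, while the other 4 were between 63.5 and 65.6 CPM. For Nqo1, C151S mouse 2 was at 7.64 CPM against 6.53 to 6.81 CPM in the others. Ftl1-ps1 was at 12.4 CPM in C151S mouse 5 against 9.10 to 9.96 CPM, and Fgfbp3 was at 0.281 CPM in C151S mouse 2 against 0.168 to 0.197 CPM. For Pir, Nrf2-knockout mouse 1 was at 9.53 CPM against 14.2 to 15.6 CPM. In each case the library stayed on its own group's side of the other genotype, as was given by groups that did not overlap in any called gene.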

How the results depend on the processing

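The count of 50 called genes (44 higher and 6 lower in C151S) depended on the tool and the covariates. It was 193 (131 and 62) with DESeq2, 79 with no filter on low counts (13 of them lower), 89 (67 and 22) with the Arntl set as a covariate and 125 (84 and 41) with 1 surrogate variable, and these held 50, 47, 48 and 50 of the 50 genes. A single fit of the 20 libraries called 61 genes (45 and 16), and these held 38 of the 50. With the replicate number as a block the count was 9 (9 higher and 0 lower). Residuals of mice with the same number correlated between -0.42 and 0.10, and no C151S mouse correlated best with the Nrf2-knockout mouse of its number. Mice of the same number were always in opposite Arntl sets, so these correlations cannot show whether a number marks shared handling. The block also left 1 called carboxylesterase of 4, 1 oxidase of 2, and 0 of the ABC transporter and the iron lists. Called carboxylesterases were 7 with DESeq2 and 2 in the fit of 20 libraries, and called glutathione transferases were 5 in place of 8 with upper-quartile normalization. Leaving out 1 mouse at a time gave 29 to 54 calls, 26 to 48 of them higher and 2 to 8 lower. The count was 31 without C151S mouse 1, C151S mouse 2 or Nrf2-knockout mouse 3 and 29 without Nrf2-knockout mouse 2, where fewer samples were fitted. Upper-quartile normalization gave 38. The promoter count was 3 with TGACTCAGC in place of 7 with TGACNNNGC, as the first pattern fixes the letters that the second leaves free. No called gene changed sign in any alternative, which could hardly happen, since the groups of every called gene did not overlap. Of 1043 values of called genes under alternatives, 781 stayed past the threshold and 262 did not. Genes called in every alternative that tested them numbered 7 (9130409I23Rik, Aox1, Ephx1, Gstm1, Nfe2l2, Nqo1 and Abcc12), and 25 were called whichever mouse was left out. Calls of Gsta1, Abcc12, mt-Te, Fgfbp3, Gstm2-ps1, Gm18635 and Adgrg2 rest on few counts, with under 10 in at least 1 library.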
